A study of Homo sapiens with 24 samples.

Results

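Cells in which G9a was knocked down were set directly against cells in which SUV39H1 was knocked down, in 12 of the 24 RNA-seq libraries of a series on U937, an established human myelomonocytic cell line. The members were chosen by the hairpin named in the labels, with no measured value: 6 libraries with lentiviral hairpins against G9a (hairpin 2 and hairpin 3, 3 libraries each) and 6 with hairpins against SUV39H1 (hairpin 2 and hairpin 4, 3 libraries each). The hairpins of a target were given equal weight, and no control library enters the contrast. All 12 carry a lentiviral hairpin, and per the labels such cells were kept in puromycin for 3 days. Libraries with a scrambled hairpin (n = 3) are quoted for orientation only, since the labels give no selection for them. UNC0638 and DMSO libraries made up the remainder of the 24. Nothing in the labels states that the replicates were separate cultures, so p-values measure only the spread between libraries of the series, which may be technical.

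G9a is the product of EHMT2 and works in a complex with GLP, the product of EHMT1. The pair adds mono- and dimethyl groups to lysine 9 of histone H3 (H3K9), chiefly in euchromatin. SUV39H1 and its paralog SUV39H2 make the trimethyl form, chiefly at pericentromeric repeats and other constitutive heterochromatin, where HP1 proteins bind it. Loss of H3K9 methylation is known to release transcripts of repeats and to set off innate immune signalling in several cell types.

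Each of the 12 libraries contributed 31545854 to 53803704 gene counts and 2277537 to 4163513 counts of repeats. Levels below are CPM, counts scaled to a common library size with TMM (edgeR's correction for composition), and differences as log2 fold changes, G9a minus SUV39H1, ± SE of the fit. A gene was called when edgeR's quasi-likelihood test gave a Benjamini-Hochberg adjusted p under 0.05. Levels of different genes are not corrected for length. The summed level of 8 myelomonocytic markers was 2171 to 2298 CPM in G9a libraries, against 2936 to 4682 CPM in SUV39H1 libraries, and all 8 were detected in both. Most of this gap lay in LYZ (means 914 and 1897 CPM), ITGB2 (725 and 1177 CPM) and PTPRC (138 and 295 CPM). SPI1 (137 and 149 CPM) and CD33 (99.1 and 104 CPM) were close, and CEBPA went the other way (171 and 140 CPM). CD68 (34.1 and 45.0 CPM) and MPO (0.889 and 1.42 CPM) added little. The 6 epithelial and fibroblast markers summed to 0.0213 to 0.180 CPM in G9a libraries and 0.279 to 0.867 CPM in SUV39H1 libraries. In G9a libraries 5 of these 6 (EPCAM, KRT5, CDH1, COL1A2 and DCN) were at 0 counts. The 5 lymphoid markers summed to 7.26 to 8.48 CPM with G9a hairpins, against 15.1 to 21.6 CPM with SUV39H1 hairpins, with CD3E and CD2 at 0 in every G9a library, and the 5 erythroid and megakaryocyte markers summed to 0.106 to 0.238 CPM with G9a hairpins and 0.175 to 0.340 CPM with SUV39H1 hairpins. The part of such differences in the results below was not tested.

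The hairpins of the 2 targets behaved differently as groups. Between G9a hairpin 2 and G9a hairpin 3 only EGR1 and HSPA6, both stress- and signal-responsive genes, differed (2 of 20147 genes, 0.00993%; 771 at an unadjusted p under 0.05). A chi-square test of counts over genes gave 1.92 to 7.90 per degree of freedom for the 9 pairs of a hairpin 2 with a hairpin 3 library, within or below the 2.72 to 8.22 of replicates of a single hairpin. The G9a libraries thus did not separate by hairpin beyond the replicate spread. Whether those 6 libraries carry separate hairpins was not tested, so the pairings with G9a hairpins 2 and 3 are not shown to be independent of each other. What is called in all 4 pairings may then rest on 2 comparisons, 1 for each SUV39H1 hairpin. Between SUV39H1 hairpins 2 and 4, 8645 genes (42.9%) differed, and the chi-square values were 48.4 to 62.2. Levels are therefore given for each SUV39H1 hairpin. A difference printed without levels is the mean over both hairpins, from which each hairpin alone may depart. A gene is said to hold in all 4 pairings when each G9a hairpin against each SUV39H1 hairpin gave a call in the same direction.

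The targeted transcripts were lowest in the libraries labelled for them. EHMT2, on the minus strand of chromosome 6 (31847536 to 31865464, hg19), stood at 70.6, 72.3 and 77.4 CPM (lowest, median, highest) in the 6 G9a libraries. In SUV39H1 libraries it was 107, 108 and 111 CPM with hairpin 2 and 126, 128 and 131 CPM with hairpin 4, so that the groups did not overlap. The difference was -0.68 ± 0.05 (adjusted p = 7.43e-13, edgeR's quasi-likelihood test), smaller than against the scrambled hairpin (-0.97 ± 0.05), and EHMT2 was also lower with SUV39H1 hairpins than with scrambled (-0.29 ± 0.06). SUV39H1 (chromosome X, 48553945 to 48567403, plus strand) stood at 50.4, 55.8 and 57.6 CPM with G9a hairpins, against 18.2, 18.9 and 18.9 CPM with SUV39H1 hairpin 2 and 20.4, 19.8 and 23.2 CPM with hairpin 4. It was 1.47 ± 0.05 higher in G9a libraries (edgeR's quasi-likelihood test, adjusted p = 7.41e-20). Reads of EHMT2 and SUV39H1 cannot be told apart from those of the antisense genes EHMT2-AS1 and AF196970.3, since the library kit does not mark strand.

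Both partner genes were higher with G9a hairpins. EHMT1 (chromosome 9, 140513444 to 140764468, plus strand) averaged 80.2 ± 3.14 CPM in G9a libraries (SD, n = 6), against 54.0 ± 0.570 and 60.7 ± 2.52 CPM with SUV39H1 hairpins 2 and 4 (SD, n = 3 each), a difference of 0.49 ± 0.03. SUV39H2 (chromosome 10, 14920819 to 14946314, plus strand) averaged 27.2 ± 1.39 CPM with G9a hairpins, against 13.5 ± 0.346 and 20.5 ± 0.558 CPM with SUV39H1 hairpins 2 and 4, a difference of 0.71 ± 0.05. SUV39H2 overlaps DCLRE1C on the opposite strand (-0.12 ± 0.04). Of the 169 genes with values here, 73 overlap another tested gene, and their shared reads cannot be assigned. Against scrambled, EHMT1 did not pass with G9a hairpins (-0.07 ± 0.04) and was lower with SUV39H1 hairpins (-0.56 ± 0.04). Relative to scrambled, all 4 methyltransferase transcripts were lower with SUV39H1 hairpins, and EHMT2 and SUV39H2 (-0.21 ± 0.05) were lower with G9a hairpins, while SUV39H1 was not called with them (-0.08 ± 0.05). Over all genes, 49.9% were called for G9a hairpins against scrambled and 67.8% for SUV39H1 hairpins against scrambled, comparisons that share the scrambled libraries.

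**Figure D1:**
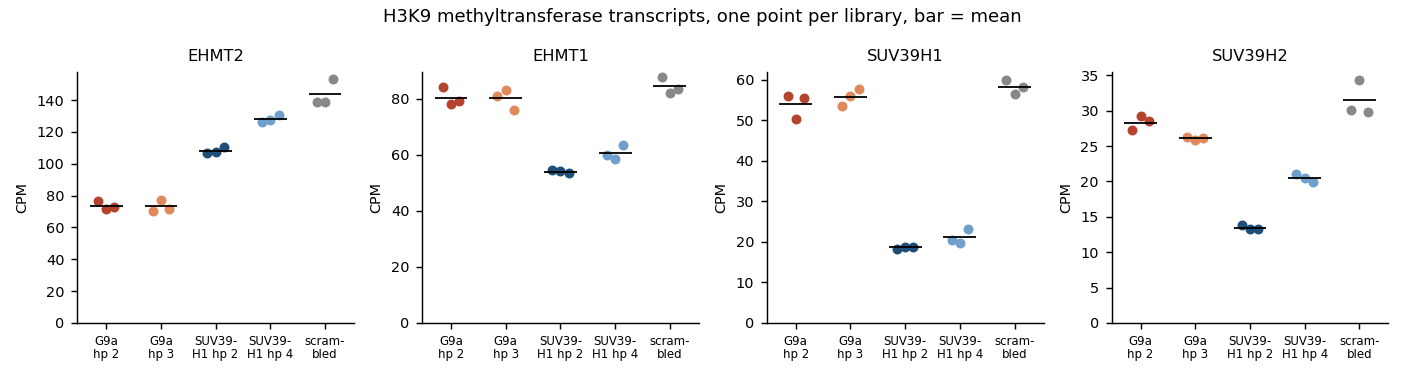
CPM (linear axis) of 4 H3K9 methyltransferase genes by hairpin group, one point per library and a bar at the mean of 3. EHMT2 is lowest in the 6 G9a libraries (70.6 to 77.4 CPM), and SUV39H1, SUV39H2 and EHMT1 are lowest in the SUV39H1 libraries.

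Over all genes, 13197 of 20147 (65.5%) differed between the knockdowns, 6624 higher (32.9%) and 6573 lower (32.6%) with G9a hairpins. In all 4 pairings 3477 were higher (17.3%) and 3399 lower (16.9%). All 6 G9a libraries lay above all 6 SUV39H1 libraries for 19.4% of genes and below them for 19.0%. In the single pairings 61.6% and 61.1% of genes were called for G9a hairpins 2 and 3 against SUV39H1 hairpin 2, and 49.1% and 48.9% against hairpin 4. The differences were mostly small, with a median absolute log2 value of 0.26. Large ones were unequal: 189 genes were at least 2-fold higher with G9a hairpins (0.938%) and 1017 at least 2-fold lower (5.05%). With each hairpin summed into 1 unit (2 against 2) the calls fell to 2640, 1149 higher and 1491 lower. In that test 73 of 181 named genes and repeats lost their call. Among those described below they include SUV39H2, IFI44L, OAS2, IFI44, AIM2, IFNB1, TAP1, B2M, HLA-DRB1, CCR2, IL6R, MYC, RPL27, CDKN1A, ASNS, SRXN1 and DNMT1, while EHMT2, SUV39H1, EHMT1, IFI6, OAS1, PARP9, HLA-B, SIGLEC1, TREM1, CCL2, CLEC5A and SST1 kept theirs. Since so many genes passed, the counts of each gene group below are read against these shares, and each group's median against the median of all genes, 0.0039.

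**Figure D2:**
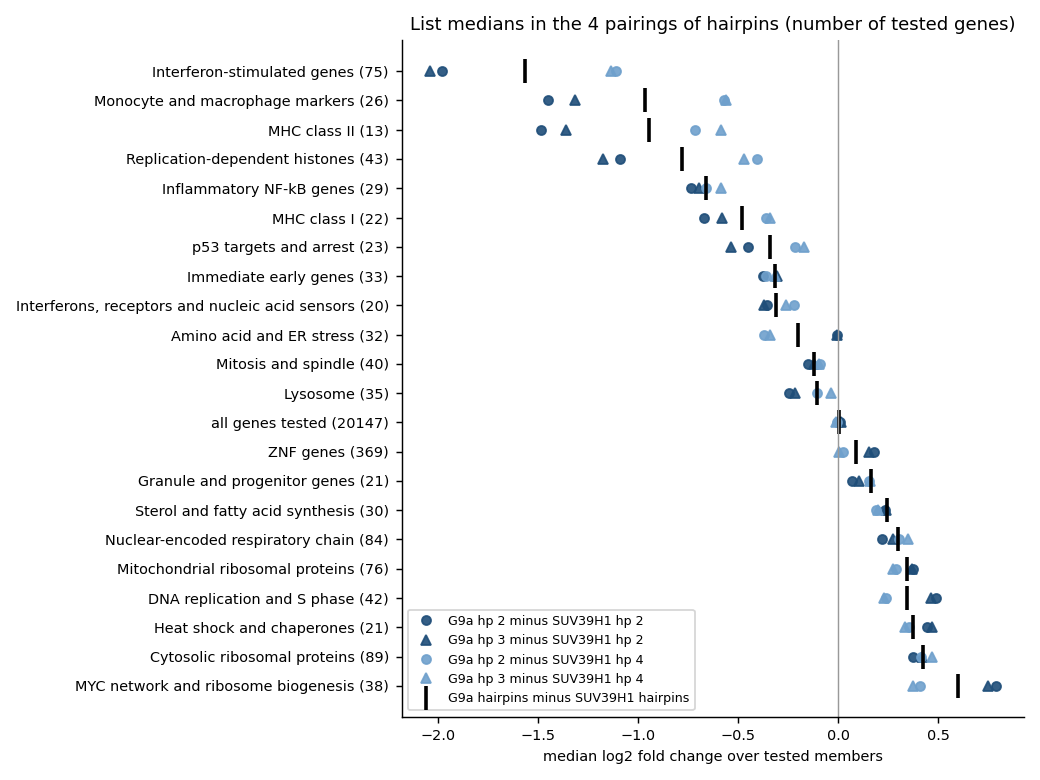
Median log2 fold change, G9a minus SUV39H1, over the tested members of 21 gene lists and of all genes, for each pairing of hairpins and for the mean of hairpins (black bar). Interferon-stimulated genes lie farthest to the left (-1.57) and MYC network and ribosome biogenesis genes farthest to the right (0.60), and the pairings with SUV39H1 hairpin 2 (dark) lie farther out than those with hairpin 4 (light) in both lists.

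Interferon-stimulated genes, which cells switch on after interferon binds its receptors, formed the group with the lowest median among the lists with more than 3 tested members. Of 75 tested members 69 were lower with G9a hairpins, 64 of them in all 4 pairings and 55 at least 2-fold, while 2 were higher and 4 not called. Their median was -1.57, and in the pairings it was -1.98 and -2.04 against SUV39H1 hairpin 2 and -1.11 and -1.14 against hairpin 4. Set against scrambled, the list's median was -0.05 with G9a hairpins and 1.67 with SUV39H1 hairpins. The exceptions, chosen after their values were seen, were MX2 (0.08 ± 0.03) and NMI (0.18 ± 0.04), which were slightly higher and lost their calls with the hairpin as unit, and IFITM1, IFITM2, IFITM3 and SP140L, which did not pass. MX2 also lost its call without G9a hairpin 2 replicate 1 (0.07, edgeR adjusted p = 0.061) or G9a hairpin 3 replicate 3 (0.06, adjusted p = 0.0872). The IFITM genes are near-identical and may share reads.

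A binding site of the interferon-activated factor ISGF3, the interferon-stimulated response element, is built around a repeated GAAA. The motif GAAA, 2 bases of any kind and GAAA again, searched on both strands (TTTC in the same spacing on the other) in the 250 bases before the start of each gene in RefSeq (GRCh38.p14), was found in 29 of the 58 listed interferon-stimulated genes with a promoter entry (50%). It was found in 7 of 18 MHC class I genes (38.9%), in 262 of 10313 tested genes with an entry (2.54%) and in 839 of 27305 promoters (3.07%). A match describes these letters and is not a measured binding site. Overlapping matches were counted separately, as in TAP1. The 170 bases before the start are shown for 4 genes named below, chosen after their values were seen from those with more than 1 match (IFIH1 and B2M, not shown, also have more than 1), with the matches in capitals. The windows are chr1:27672193-27672362 (IFI6, minus strand), chr1:78620278-78620447 (IFI44L, plus), chr10:89414398-89414567 (IFIT5, plus) and chr6:32853705-32853874 (TAP1, minus).
IFI6: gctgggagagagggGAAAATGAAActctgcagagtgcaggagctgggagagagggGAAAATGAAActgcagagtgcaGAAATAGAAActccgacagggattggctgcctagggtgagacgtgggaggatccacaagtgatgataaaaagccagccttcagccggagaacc
IFI44L: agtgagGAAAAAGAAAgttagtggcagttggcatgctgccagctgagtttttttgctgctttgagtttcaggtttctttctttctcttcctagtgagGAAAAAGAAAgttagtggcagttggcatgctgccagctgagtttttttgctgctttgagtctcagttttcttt
IFIT5: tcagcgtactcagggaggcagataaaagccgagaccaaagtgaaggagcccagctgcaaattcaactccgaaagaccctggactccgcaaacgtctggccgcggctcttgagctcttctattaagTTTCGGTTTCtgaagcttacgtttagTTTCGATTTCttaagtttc
TAP1: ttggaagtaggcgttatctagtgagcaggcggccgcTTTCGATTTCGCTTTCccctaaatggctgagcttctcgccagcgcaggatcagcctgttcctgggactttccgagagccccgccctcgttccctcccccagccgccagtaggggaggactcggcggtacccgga

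IFI6, a small mitochondrial and endoplasmic reticulum protein induced by interferon (chromosome 1, 27992572 to 27998729, minus strand, hg19), carries 3 of these matches. It stood at 23.5, 27.8 and 30.0 CPM (lowest, median, highest) in G9a libraries, against 1256, 1277 and 1168 CPM with SUV39H1 hairpin 2 and 387, 382 and 359 CPM with hairpin 4. Every G9a library was more than 10-fold below every SUV39H1 library, and the difference was -4.63 ± 0.06 (edgeR's quasi-likelihood test, adjusted p = 6.9e-29). The scrambled libraries averaged 36.6 ± 2.06 CPM (SD, n = 3).

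OAS1, an enzyme whose oligoadenylate product switches on RNase L (chromosome 12, 113344582 to 113369990, plus strand), stood at 7.64, 8.59 and 9.59 CPM with G9a hairpins. With SUV39H1 hairpin 2 it was 160, 159 and 163 CPM, and with hairpin 4 it was 52.1, 49.4 and 51.7 CPM. The groups did not overlap, and the difference was -3.39 ± 0.04 (adjusted p = 6.9e-29). OAS2, of the same enzyme family (chromosome 12, 113416200 to 113449528, plus strand), averaged 0.123 ± 0.0682 CPM in G9a libraries (SD, n = 6), 9.12 ± 0.0881 CPM with SUV39H1 hairpin 2 and 0.809 ± 0.0962 CPM with hairpin 4 (SD, n = 3 each), a difference of -4.43 ± 0.18. OAS1 and OAS2 overlap the opposite-strand gene RP1-71H24.1, which moved with them (-3.14 ± 0.11).

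PARP9, a partner of the ubiquitin ligase DTX3L in the interferon response (chromosome 3, 122246771 to 122283424, minus strand), had the smallest p of the list. Its levels were 19.4, 20.6 and 21.5 CPM in G9a libraries, against 157, 155 and 158 CPM with SUV39H1 hairpin 2 and 77.5, 73.9 and 76.4 CPM with hairpin 4. The replicates of each hairpin lay close together and the groups did not overlap (-2.41 ± 0.03, adjusted p = 6.9e-29). DTX3L, which overlaps PARP9 on the opposite strand, differed by -1.30 ± 0.03.

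IFI44L and IFI44 are neighbouring interferon-induced genes on chromosome 1 (79085607 to 79111830 and 79115481 to 79129763, both on the plus strand). IFI44L had 1 count in the 6 G9a libraries together and 1071 in the 6 SUV39H1 libraries. With equal weight per hairpin the difference was -8.31 ± 0.48, which rests on that 1 count. Pooled over hairpins, the counts gave a ratio of SUV39H1 to G9a of 1021, with a 95% counting interval of 183 to 40371. This interval leaves out the difference between hairpins. Nearly all of the SUV39H1 reads came with hairpin 2, at 9.03, 9.12 and 8.36 CPM, against 0.262, 0.384 and 0.407 CPM with hairpin 4. IFI44 averaged 0.727 ± 0.0808 CPM with G9a hairpins, 31.7 ± 0.527 CPM with SUV39H1 hairpin 2 and 3.62 ± 0.165 CPM with hairpin 4, a difference of -3.88 ± 0.08. IFIT5, which binds viral RNA (chromosome 10, 91174343 to 91180758, plus strand), averaged 1.59 ± 0.277 CPM with G9a hairpins, against 40.9 ± 0.645 and 11.2 ± 1.12 CPM with SUV39H1 hairpins 2 and 4 (-3.75 ± 0.08). TRIM22, an antiviral ubiquitin ligase (chromosome 11, 5710919 to 5758319, plus strand), averaged 4.18 ± 0.423 CPM with G9a hairpins, against 126 ± 3.27 and 34.5 ± 1.16 CPM with SUV39H1 hairpins 2 and 4 (-3.98 ± 0.05). TRIM22 overlaps TRIM5 on the opposite strand (-0.92 ± 0.04).

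The genes that make, sense and relay interferon also stood lower with G9a hairpins, by less. Of 20 tested interferons, receptors and nucleic acid sensors 16 were lower (12 in all 4 pairings), 3 higher and 1 not called (median -0.31). AIM2, a sensor of cytosolic DNA (chromosome 1, 159032274 to 159116886, minus strand), averaged 0.915 ± 0.153 CPM with G9a hairpins, against 11.5 ± 1.12 and 2.34 ± 0.149 CPM with SUV39H1 hairpins 2 and 4 (-2.50 ± 0.09). SOCS1, which restrains JAK-STAT signalling (chromosome 16, 11348262 to 11350036, minus strand), averaged 0.720 ± 0.129 CPM with G9a hairpins, against 4.75 ± 0.106 and 1.98 ± 0.116 CPM (-2.09 ± 0.09). SOCS1 overlaps RMI2 on the opposite strand, a gene of higher level (35.5 CPM on average) that differed by -0.33. ADAR, an editor of RNA that is itself induced by interferon, differed by -0.54 ± 0.03. The members that were higher, chosen after their values were seen, were MAVS (0.28 ± 0.04), the adaptor of the RNA sensors, TLR9 (0.16 ± 0.04) and IRF5 (0.07 ± 0.03).

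Several central genes of the pathway were looked up after their values were seen. IRF9, a DNA-binding subunit of ISGF3, averaged 5.72 ± 0.195 CPM with G9a hairpins, against 40.5 ± 1.78 and 28.9 ± 0.840 CPM with SUV39H1 hairpins 2 and 4 (-2.58 ± 0.04). IRF7, which drives interferon production, averaged 10.5 ± 0.855 CPM with G9a hairpins, against 115 ± 6.90 and 49.4 ± 1.10 CPM (-2.85 ± 0.04). The RNA sensors DDX58 (-2.11 ± 0.05) and IFIH1 (-1.62 ± 0.02) were lower as well. IFIH1 differed by -2.10 and -2.11 in the pairings with SUV39H1 hairpin 2, and by -1.12 and -1.14 in those with hairpin 4. IFNB1, the interferon beta gene (chromosome 9, 21077104 to 21077943, minus strand), was sparse, with 18 counts in the 6 G9a libraries together and 109 in the 6 SUV39H1 libraries. The difference was -2.33 ± 0.32 (edgeR's quasi-likelihood test, adjusted p = 5.12e-07), with G9a hairpins at a mean of 0.0705 ± 0.0345 CPM, against 0.696 ± 0.0604 CPM with SUV39H1 hairpin 2 and 0.188 ± 0.0570 CPM with hairpin 4.

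Antigen presentation genes followed the same direction. MHC class I genes, whose products show peptides from inside the cell, were lower in 17 of 22 members, all 17 in all 4 pairings, and higher in 4, with a median of -0.48. HLA-B (chromosome 6, 31321649 to 31324965, minus strand) stood at 522, 541 and 575 CPM in G9a libraries. With SUV39H1 hairpin 2 it was 1366, 1416 and 1388 CPM, and with hairpin 4 it was 1006, 1015 and 1049 CPM. The groups did not overlap (-1.13 ± 0.03, adjusted p = 2.32e-22). TAP1, the peptide transporter whose promoter is shown above, differed by -0.85 ± 0.03, with -1.19 and -1.21 in the pairings with SUV39H1 hairpin 2 and -0.48 and -0.51 in those with hairpin 4. HLA paralogs are near-identical and can share reads, and TAP1 overlaps PSMB9 on the opposite strand (-0.78 ± 0.04). The members that were higher were the endoplasmic reticulum chaperones CALR (0.71 ± 0.04), PDIA3 (0.33 ± 0.03) and CANX (0.12 ± 0.02) and the proteasome subunit PSMB10 (0.15 ± 0.04), named after their values were seen. B2M, the shared light chain, averaged 1117 ± 69.7 CPM with G9a hairpins, against 3296 ± 110 and 1826 ± 67.8 CPM with SUV39H1 hairpins 2 and 4 (-1.14 ± 0.05).

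MHC class II genes, whose products show peptides taken up from outside, were lower in 12 of 13 tested members (10 in all 4 pairings) with a median of -0.94, and HLA-DOB did not pass. HLA-DRB1 averaged 29.4 ± 1.67 CPM with G9a hairpins, against 83.7 ± 1.79 and 47.8 ± 1.32 CPM with SUV39H1 hairpins 2 and 4 (-1.11 ± 0.04). HLA-DMA, which helps load peptides (chromosome 6, 32916390 to 32936871, minus strand), averaged 5.58 ± 0.659 CPM with G9a hairpins, against 17.1 ± 0.721 and 10.2 ± 0.251 CPM (-1.25 ± 0.06). HLA-DMA overlaps BRD2 on the opposite strand, a gene of higher level (242 CPM on average) that differed by -0.17. HLA-DRA, added after its values were seen, differed by -0.91 ± 0.05. Against scrambled it was lower with G9a hairpins (-0.87 ± 0.05) and not called with SUV39H1 hairpins (0.05 ± 0.05). CIITA, the master regulator of class II genes, differed by -0.25 ± 0.04 and was not called in every pairing.

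Markers of monocytes and macrophages were lower with G9a hairpins in 22 of 26 tested members, 16 in all 4 pairings and 12 at least 2-fold, with a median of -0.97. This list was higher than scrambled in both arms, with medians of 0.47 with G9a hairpins and 1.36 with SUV39H1 hairpins. SIGLEC1, a macrophage receptor for sialic acids (chromosome 20, 3667617 to 3687775, minus strand), was counted with the interferon-stimulated genes, not in this list. It stood at 5.59, 6.41 and 7.53 CPM with G9a hairpins. With SUV39H1 hairpin 2 it was 218, 224 and 231 CPM, and with hairpin 4 it was 80.4, 84.5 and 90.2 CPM. There was no overlap between groups (-4.42 ± 0.05, adjusted p = 6.9e-29). CLEC7A, the beta-glucan receptor dectin-1 (chromosome 12, 10269376 to 10282857, minus strand), averaged 0.242 ± 0.0923 CPM with G9a hairpins, against 8.69 ± 0.423 and 2.84 ± 0.242 CPM with SUV39H1 hairpins 2 and 4 (-4.37 ± 0.12).

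TREM1, an activating receptor of monocytes and neutrophils (chromosome 6, 41235664 to 41254457, minus strand), was low in 1 arm and high in the other relative to scrambled. It stood at 14.6, 15.9 and 18.0 CPM with G9a hairpins, against 148, 153 and 163 CPM with SUV39H1 hairpin 2 and 70.6, 67.0 and 71.1 CPM with hairpin 4, while scrambled libraries averaged 41.0 ± 1.33 CPM. The difference between the knockdowns was -2.70 ± 0.03 (adjusted p = 1.16e-28), with -1.36 ± 0.04 for G9a and 1.34 ± 0.04 for SUV39H1 against scrambled. GPNMB, a glycoprotein of macrophage lysosomes (chromosome 7, 23275586 to 23314727, plus strand), had the same layout: 112 ± 3.44 CPM with G9a hairpins, 699 ± 12.6 and 381 ± 3.02 CPM with SUV39H1 hairpins 2 and 4, and 227 ± 2.63 CPM with scrambled (-2.20 ± 0.02). The chemokine receptor CCR2 averaged 2.37 ± 0.232 CPM with G9a hairpins, against 31.7 ± 0.869 and 5.39 ± 0.435 CPM with SUV39H1 hairpins 2 and 4 (-2.46 ± 0.06).

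Against this direction stood the scavenger receptor MARCO (1.02 ± 0.05), TREM2 (2.22 ± 0.17) and the complement gene C1QA (1.76 ± 0.20), which were higher with G9a hairpins in all 4 pairings, and FCN1 (0.12 ± 0.03), all named after their values were seen. MARCO averaged 23.9 ± 1.66 CPM with G9a hairpins, against 13.7 ± 0.678 and 10.0 ± 0.615 CPM with SUV39H1 hairpins 2 and 4. TREM2 and C1QA were at most 1.05 and 0.803 CPM in any of the 12 libraries. MARCO overlaps an opposite-strand gene, RP11-77A13.1, of low level (0.589 CPM on average) and with a larger difference (5.84).

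Inflammatory genes under NF-kB were lower with G9a hairpins in 25 of 29 tested members, 18 in all 4 pairings, with a median of -0.66. The monocyte chemokine CCL2 (chromosome 17, 32582304 to 32584222, plus strand) stood at 29.6, 30.3 and 34.3 CPM with G9a hairpins, against 261, 258 and 256 CPM with SUV39H1 hairpin 2 and 203, 190 and 187 CPM with hairpin 4. The scrambled libraries, at 95.5 ± 3.12 CPM, lay between the arms, and the difference between the knockdowns was -2.85 ± 0.03 (adjusted p = 6.9e-29). Between SUV39H1 hairpins 2 and 4 CCL2 differed by 0.42 ± 0.04, against a median of 0.98 over the interferon-stimulated genes. Not every interferon-induced gene differed by more than CCL2, as ADAR shows (0.32 ± 0.04). CCL3 averaged 5.08 ± 0.396 CPM with G9a hairpins, against 17.7 ± 0.404 and 12.3 ± 0.610 CPM with SUV39H1 hairpins 2 and 4 (-1.53 ± 0.05), and the NF-kB inhibitor NFKBIE differed by -0.95 ± 0.03. IL8, added after its values were seen, differed by -0.83 ± 0.07. It was lower than scrambled with G9a hairpins (-0.75 ± 0.09) and not called with SUV39H1 hairpins (0.09 ± 0.09). The members that were higher, named after their values were seen, were RELA (0.18 ± 0.05), SOD2 (0.10 ± 0.02) and CD83 (0.08 ± 0.03).

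**Figure D3:**
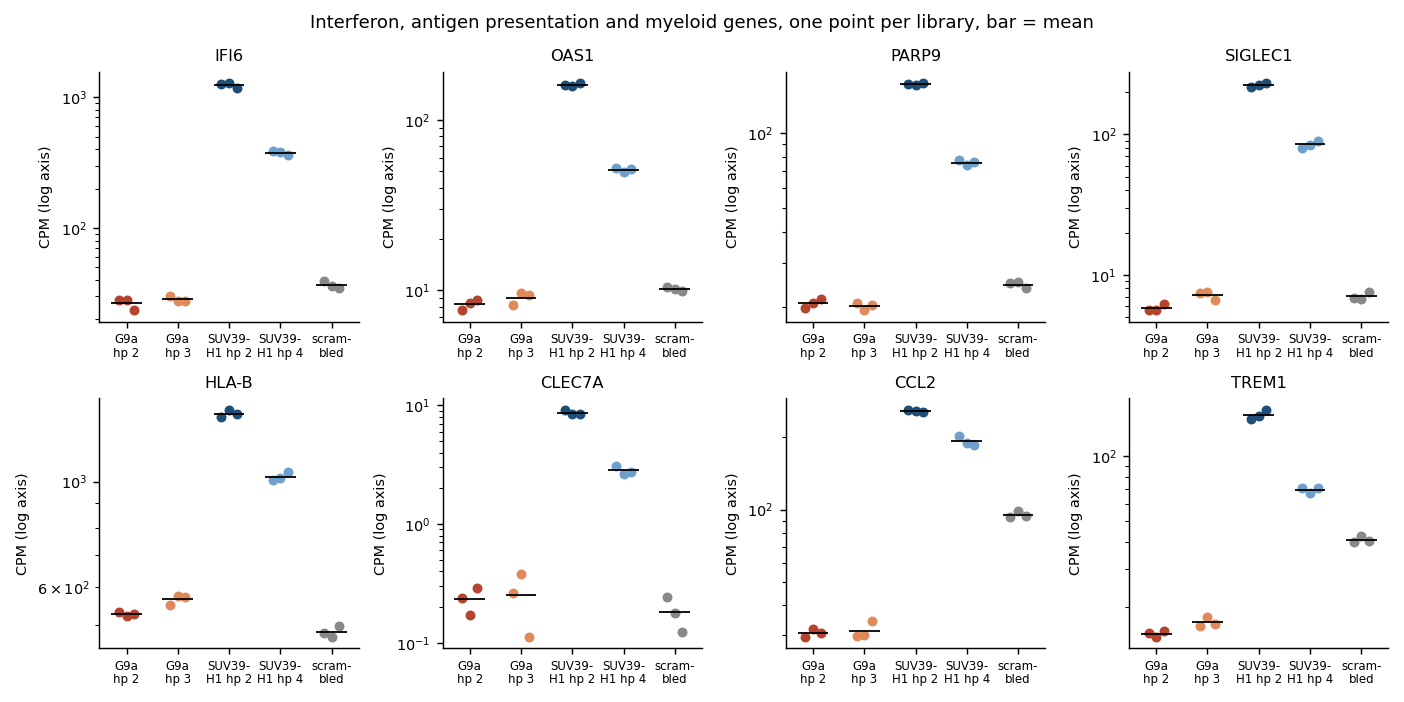
CPM (log axis) of 8 interferon, antigen presentation and myeloid genes by hairpin group, one point per library and a bar at the mean of 3. In every panel all 6 G9a libraries lie below all 6 SUV39H1 libraries, and SUV39H1 hairpin 2 lies above hairpin 4. TREM1 and CCL2 have the scrambled libraries between the arms.

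Outside the lists, SLCO2B1, an organic anion transporter (chromosome 11, 74811608 to 74917594, plus strand), averaged 0.800 ± 0.177 CPM with G9a hairpins, against 38.5 ± 1.26 and 8.67 ± 0.174 CPM with SUV39H1 hairpins 2 and 4 (-4.53 ± 0.07). DAAM2, a formin (chromosome 6, 39760142 to 39872648, plus strand), averaged 2.47 ± 0.412 CPM with G9a hairpins, against 51.6 ± 3.09 and 26.8 ± 1.39 CPM (-3.92 ± 0.06). MOCS1, which overlaps DAAM2 on the opposite strand at a lower level (1.30 CPM on average), had a similar difference (-3.87 ± 0.17). Their reads cannot be told apart where they overlap. SUCNR1, the succinate receptor, averaged 5.50 ± 0.470 CPM with G9a hairpins, against 105 ± 1.89 and 31.2 ± 1.10 CPM (-3.38 ± 0.06).

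Among genes higher with G9a hairpins, the largest difference under the naming rule was that of CLEC5A, a lectin receptor of myeloid cells (chromosome 7, 141627157 to 141646807, minus strand). It stood at 83.8, 86.6 and 93.7 CPM with G9a hairpins, against 9.22, 9.49 and 9.70 CPM with SUV39H1 hairpin 2 and 24.1, 26.5 and 25.7 CPM with hairpin 4. All G9a libraries were above all SUV39H1 libraries (2.49 ± 0.04, adjusted p = 3.09e-27). Against scrambled (86.6 ± 3.14 CPM) the G9a libraries were not called (0.01 ± 0.04) and the SUV39H1 libraries were lower (-2.48 ± 0.04). MGAM, which overlaps CLEC5A on the opposite strand, had a difference of 1.62 ± 0.04, and their reads cannot be told apart where they overlap.

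IL6R, the interleukin 6 receptor (chromosome 1, 154377669 to 154441926, plus strand), stood at 436, 449 and 457 CPM with G9a hairpins. With SUV39H1 hairpin 2 it was 86.4, 85.2 and 87.5 CPM and with hairpin 4 it was 235, 228 and 234 CPM, again without overlap (1.66 ± 0.02). IL6R moved in both arms relative to scrambled, up with G9a hairpins (0.41 ± 0.03) and down with SUV39H1 hairpins (-1.25 ± 0.03). The metalloproteinase gene ADAMTS9 averaged 46.7 ± 1.22 CPM with G9a hairpins, against 15.2, 14.3 and 15.6 CPM with SUV39H1 hairpin 2 and 14.0, 14.7 and 15.8 CPM with hairpin 4 (1.64 ± 0.04), one of the large differences in which the SUV39H1 hairpins stood at the same level (0.02 ± 0.05 between them). The glutamate receptor subunit gene GRIN3A was alike in this, at 8.61 ± 0.574 CPM with G9a hairpins, against 2.93 ± 0.222 and 2.83 ± 0.173 CPM (1.58 ± 0.06). PRTG (2.13 ± 0.08), the inhibitory receptor SIGLEC8 (1.83 ± 0.07), TMEM132B (1.81 ± 0.05), ACTL8 (1.65 ± 0.03), MLC1 (1.58 ± 0.03), MAP7D2 (1.54 ± 0.07) and the pseudogene OR52K3P (2.17 ± 0.09) completed, with MGAM, the 12 genes. SIGLEC8 differed by 2.46 and 2.49 against SUV39H1 hairpin 2, and by 1.17 and 1.19 against hairpin 4. For MAP7D2 these values were 2.41 and 2.35 against hairpin 2, and 0.73 and 0.67 against hairpin 4.

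Genes of growth and protein synthesis were higher with G9a hairpins, by small amounts. Of 38 members of the MYC network and ribosome biogenesis list, 35 were higher, 33 of them in all 4 pairings, with a median of 0.60. MYC, the growth-promoting transcription factor (chromosome 8, 128747680 to 128753674, plus strand), stood at 202, 210 and 214 CPM with G9a hairpins, against 88.1, 86.6 and 84.6 CPM with SUV39H1 hairpin 2 and 144, 139 and 142 CPM with hairpin 4. The groups did not overlap (0.92 ± 0.03, adjusted p = 1.69e-19), and both arms were below scrambled, at 283 ± 9.88 CPM. ODC1, which starts polyamine synthesis and is a MYC target, averaged 494 ± 14.7 CPM with G9a hairpins, against 194 ± 5.88 and 288 ± 3.64 CPM with SUV39H1 hairpins 2 and 4 (1.06 ± 0.03). NCL, the nucleolar protein nucleolin (chromosome 2, 232318242 to 232348352, minus strand), averaged 1316 ± 40.4 CPM with G9a hairpins, against 766 ± 18.6 and 769 ± 19.6 CPM (0.78 ± 0.02). The MYC antagonists MXD1 (-0.22 ± 0.04) and MXI1 (-0.33 ± 0.04) were lower, and MNT did not pass. Against scrambled the list's median was -0.27 with G9a hairpins and -0.90 with SUV39H1 hairpins.

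Cytosolic ribosomal protein genes were higher in 83 of 89 tested members (73 in all 4 pairings), with a median of 0.42. RPL27 (chromosome 17, 41150290 to 41154976, plus strand) averaged 702 ± 49.0 CPM with G9a hairpins, against 248 ± 16.8 and 424 ± 3.50 CPM with SUV39H1 hairpins 2 and 4 (1.11 ± 0.04), RPL19 differed by 0.73 ± 0.02 and RPL12 by 0.74 ± 0.03. RPL21 was the 1 member that was lower (-0.20 ± 0.05). These genes have many processed pseudogenes with which reads may be shared. Mitochondrial ribosomal protein genes were higher in 70 of 76 members (60 in all 4 pairings; median 0.34), among them MRPL12 at 60.5 ± 2.07 CPM with G9a hairpins, against 32.1 ± 0.563 and 35.1 ± 0.485 CPM with SUV39H1 hairpins 2 and 4 (0.85 ± 0.03). Nuclear-encoded respiratory chain genes, a list drawn by name that holds some pseudogenes, were higher in 74 of 84 (50 in all 4 pairings; median 0.30), with SDHB at 0.54 ± 0.03 and COX5A at 0.43 ± 0.03.

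Chaperones and lipid synthesis genes were also mostly higher. Heat shock and chaperone genes were higher in 17 of 21 members (16 in all 4 pairings; median 0.37). HSPA8, the constitutive HSP70 chaperone, averaged 3099 ± 103 CPM with G9a hairpins, against 1708 ± 22.0 and 1776 ± 27.7 CPM with SUV39H1 hairpins 2 and 4 (0.83 ± 0.03). HSPA9, its mitochondrial relative, differed by 0.67 ± 0.02 and the chaperonin subunit CCT3 by 0.58 ± 0.02. The stress-induced members HSPA1A (-0.56 ± 0.05) and HSPA1B (-0.63 ± 0.05), near-identical copies, were lower, and so was HSPA6, named for its difference between the G9a hairpins, at 5.18 ± 1.00 CPM with G9a hairpins, against 19.6 ± 0.267 and 24.3 ± 1.40 CPM (-2.10 ± 0.04). Sterol and fatty acid synthesis genes were higher in 22 of 30 tested members (16 in all 4 pairings; median 0.24), such as ACAT2 (0.54 ± 0.03) and SCD (0.42 ± 0.03). STARD4, a cholesterol transporter of the same list, was lower (-1.27 ± 0.05), at 8.16 ± 0.797 CPM with G9a hairpins, against 21.8 ± 1.74 and 17.6 ± 1.10 CPM. The opposite-strand gene STARD4-AS1, which overlaps it and is of higher level (29.0 CPM on average), went the other way (0.78).

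**Figure D4:**
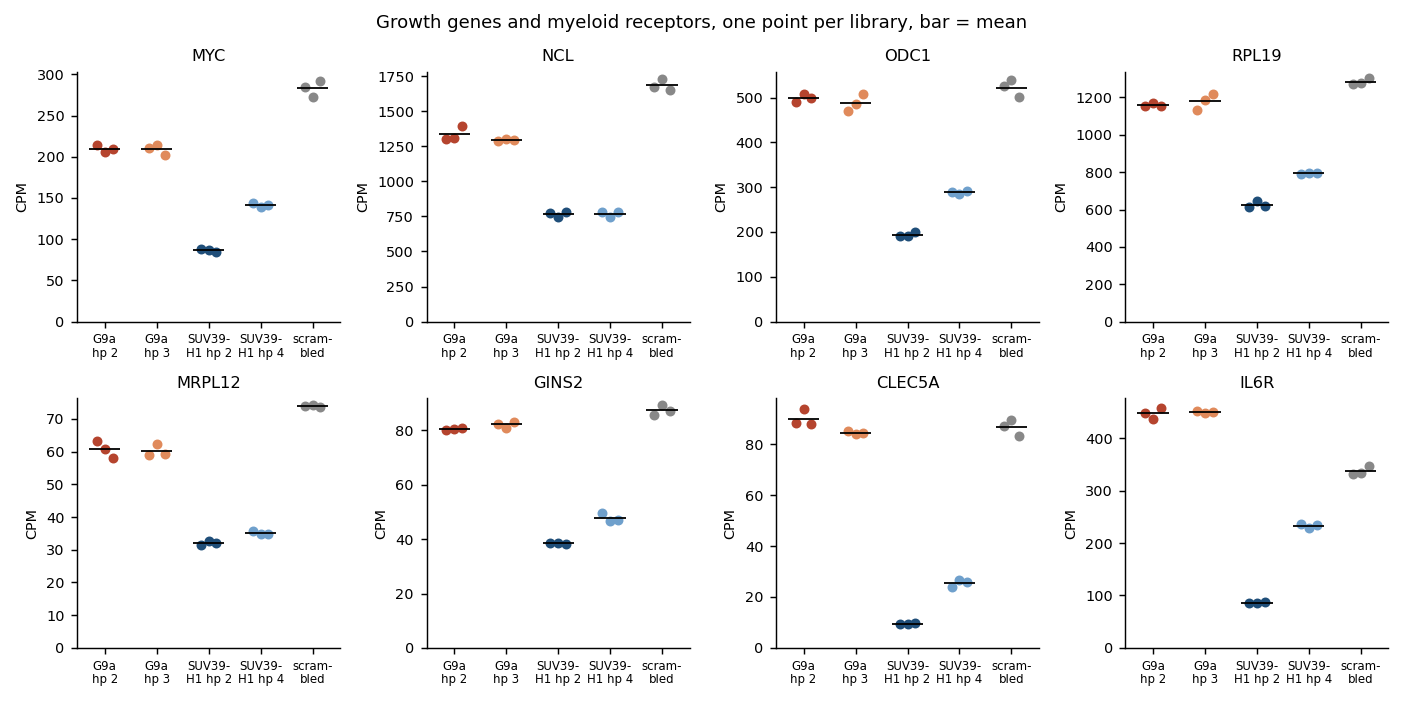
CPM (linear axis) of 6 growth genes and of the receptors CLEC5A and IL6R by hairpin group, one point per library and a bar at the mean of 3. All 6 G9a libraries lie above all 6 SUV39H1 libraries in each panel, MYC and NCL of the G9a libraries lie below scrambled, and CLEC5A of the G9a libraries lies at the scrambled level.

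DNA replication and S phase genes were higher with G9a hairpins in 38 of 42 members, 33 in all 4 pairings, with a median of 0.34. CCNE1, the cyclin of the G1 to S transition (chromosome 19, 30302805 to 30315215, plus strand), averaged 21.8 ± 1.06 CPM with G9a hairpins, against 8.07 ± 0.335 and 11.3 ± 0.0533 CPM with SUV39H1 hairpins 2 and 4 (1.19 ± 0.04). GINS2, a subunit of the replicative helicase, averaged 81.3 ± 1.24 CPM with G9a hairpins, against 38.4 ± 0.293 and 47.8 ± 1.53 CPM (0.92 ± 0.03), and CDC6, which licenses origins, differed by 0.72 ± 0.03. ORC6 (-0.10 ± 0.03) and CCNE2 (-0.12 ± 0.05) were lower. Set against scrambled, the list's median was 0.02 with G9a hairpins and -0.36 with SUV39H1 hairpins.

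Mitosis and spindle genes did not share that direction: 7 of 40 were higher and 23 lower (13 in all 4 pairings), with a median of -0.12. The checkpoint kinase BUB1B averaged 84.2 ± 1.63 CPM with G9a hairpins, against 140 ± 2.33 and 134 ± 1.71 CPM with SUV39H1 hairpins 2 and 4 (-0.70 ± 0.03), and the centromeric histone CENPA differed by -0.43 ± 0.04. BIRC5, the inhibitor of apoptosis survivin, went the other way (0.64 ± 0.03), with 34.9 ± 1.16 CPM with G9a hairpins, against 16.5 ± 1.06 and 30.4 ± 0.579 CPM. The proliferation marker MKI67, chosen after its values were seen, was 0.35 ± 0.04 higher with G9a hairpins.

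Genes of p53 and cell cycle arrest were lower with G9a hairpins in 17 of 23 tested members (12 in all 4 pairings; median -0.34). CDKN1A, the inhibitor p21 (chromosome 6, 36644305 to 36655116, plus strand), stood at 23.8, 25.2 and 27.6 CPM with G9a hairpins, against 84.1, 83.7 and 83.2 CPM with SUV39H1 hairpin 2 and 38.4, 38.8 and 41.7 CPM with hairpin 4. The groups did not overlap (-1.17 ± 0.03), and both arms were above scrambled, at 11.9 ± 0.394 CPM. CDKN2D, the inhibitor p19 (chromosome 19, 10677138 to 10679735, minus strand), averaged 23.3 ± 1.22 CPM with G9a hairpins, against 79.4 ± 2.27 and 52.4 ± 0.491 CPM with SUV39H1 hairpins 2 and 4 (-1.47 ± 0.03). SESN2, a stress-induced sestrin, was higher with hairpin 4 than with hairpin 2 in the SUV39H1 arm, at 15.5 ± 0.960 CPM with G9a hairpins, against 29.5 ± 1.09 and 49.4 ± 2.16 CPM (-1.30 ± 0.05). CDKN1B (0.25 ± 0.04), ZMAT3 (0.49 ± 0.05) and AEN (0.60 ± 0.04) were higher. Apoptosis regulators were lower in 17 of 28 and higher in 7, and the caspase gene CASP10 (-0.77 ± 0.04) and the BH3-only gene BMF (-0.82 ± 0.03) were among the lower ones.

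Stress and redox genes were mixed, and some depended on the SUV39H1 hairpin. In the amino acid and endoplasmic reticulum stress list 19 of 32 were lower and 10 higher (median -0.20), and the medians were -0.01 in both pairings with SUV39H1 hairpin 2, against -0.37 and -0.34 in those with hairpin 4. SLC7A11, the cystine transporter (chromosome 4, 139085251 to 139163503, minus strand), stood at 9.87, 10.9 and 12.3 CPM with G9a hairpins, against 85.8, 76.2 and 79.1 CPM with SUV39H1 hairpin 2 and 43.2, 42.6 and 40.8 CPM with hairpin 4 (-2.41 ± 0.04). DDIT4, an inhibitor of mTORC1 signalling, averaged 11.2 ± 0.550 CPM with G9a hairpins, against 36.7 ± 0.851 and 63.2 ± 1.27 CPM (-2.11 ± 0.04). ASNS, asparagine synthetase, shows the dependence: its mean difference was -0.67 ± 0.03, yet G9a libraries (61.5, 65.9 and 74.1 CPM) overlapped SUV39H1 hairpin 2 (61.3 ± 2.72 CPM) and lay far below hairpin 4 (182 ± 0.948 CPM), with 0.21 and 0.03 in the pairings with hairpin 2 and -1.36 and -1.55 in those with hairpin 4. The oxidative stress list was lower in 16 of 24 and higher in 7 (median -0.19), with 6 lower and 2 higher in all 4 pairings. Its medians were -0.49 and -0.45 in the pairings with SUV39H1 hairpin 2, but -0.03 and -0.01 in those with hairpin 4. SRXN1 (-1.35 ± 0.03) and the heme oxygenase HMOX1 (-1.60 ± 0.04) were among the smallest p. GPX4, which protects membrane lipids from peroxidation and was named after its values were seen, was higher (1.23 ± 0.04). It averaged 353 ± 9.05 CPM with G9a hairpins, against 105 ± 3.63 and 214 ± 1.89 CPM with SUV39H1 hairpins 2 and 4. SRXN1 differed by -1.94 and -1.92 against SUV39H1 hairpin 2, and by -0.78 and -0.75 against hairpin 4.

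Other lists divided more evenly or held few members. For comparison, 32.9% of all genes were higher and 32.6% lower. Granule and progenitor genes were higher in 11 of 21 and lower in 9 (median 0.16), with the granule protease PRTN3 higher (0.86 ± 0.06) and the granulocyte factor CEBPE lower (-0.81 ± 0.04). Lysosome genes were lower in 19 of 35 and higher in 7 (median -0.11), and the protease CTSD, chosen after its values were seen, averaged 1035 ± 58.0 CPM with G9a hairpins, against 2970 ± 25.7 and 1801 ± 36.7 CPM with SUV39H1 hairpins 2 and 4 (-1.16 ± 0.05). CTSD overlaps RP11-295K3.1 on the same strand, so reads in the shared interval may be split between them. Immediate early genes were lower in 23 of 33 (median -0.32), with FOS at -1.04 ± 0.04 and DUSP4 at -1.24 ± 0.04, and EGR1 was lower in the mean (-0.28 ± 0.07) but not in each pairing. The 3 germline genes that were tested, of 25 listed, were lower: TDRD9 (-1.96 ± 0.08), TEX14 (-1.70 ± 0.19) and SYCP3 (-0.59 ± 0.10). Replication-dependent histones, whose transcripts mostly lack poly(A) tails, were lower in 23 of 43 (median -0.78). Only 6 of these were lower in all 4 pairings, a share below the 16.9% of all genes, so the list did not stand out there. HIST1H2BK averaged 4.49 ± 0.402 CPM with G9a hairpins, against 11.8 ± 0.936 and 5.90 ± 0.487 CPM with SUV39H1 hairpins 2 and 4 (-0.89 ± 0.06). HIST2H2BE averaged 0.665 ± 0.154 CPM with G9a hairpins, against 3.47 ± 0.811 and 1.13 ± 0.182 CPM (-1.58 ± 0.14), and HIST1H2AC 1.21 ± 0.126 CPM with G9a hairpins, against 4.43 ± 0.560 and 1.66 ± 0.158 CPM (-1.18 ± 0.11).

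Lymphoid and developmental genes showed single large members. CD79A, a B cell receptor component (chromosome 19, 42381190 to 42385439, plus strand), stood at 3.37, 3.85 and 4.22 CPM with G9a hairpins, against 10.6 ± 0.427 CPM (SD, n = 3) with SUV39H1 hairpin 2 and 14.8, 13.9 and 15.5 CPM with hairpin 4, while scrambled libraries averaged 18.1 ± 1.60 CPM (-1.71 ± 0.06). It is 1 of the 6 lymphoid genes tested, of which 4 were lower and PAX5 was higher (0.70 ± 0.04). Among erythroid and megakaryocyte genes 3 of 5 were lower, and the transferrin receptor TFRC was higher (0.51 ± 0.03). In the HOXA list HOXA13 (0.72 ± 0.04), MEIS1 (0.58 ± 0.03) and HOXA10 (0.31 ± 0.03) were higher and 4 of 13 lower, a share near the 32.6% of all genes. The collagen gene COL1A1 was at 0.0740 ± 0.0554 CPM with G9a hairpins, against 0.732 ± 0.0618 and 0.332 ± 0.0525 CPM with SUV39H1 hairpins 2 and 4, while the keratin gene KRT8 was higher (2.83 ± 0.34), at 0.406 ± 0.0599 CPM with G9a hairpins, against 0.0385 ± 0.0474 and 0.0860 ± 0.0192 CPM.

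Metabolic and adhesion lists were mixed, with some large members (over all genes 32.9% were higher and 32.6% lower). Of 31 hypoxia and glycolysis genes 15 were higher and 11 lower (median 0.04, and -0.01 for G9a hairpin 2 against SUV39H1 hairpin 2). SLC2A3, the glucose transporter GLUT3 (chromosome 12, 8071826 to 8088871, minus strand), averaged 38.5 ± 0.927 CPM with G9a hairpins, against 127 ± 2.64 and 110 ± 1.84 CPM with SUV39H1 hairpins 2 and 4 (-1.62 ± 0.02), and scrambled libraries lay between, at 68.2 ± 0.831 CPM. VEGFA, the vascular growth factor, differed by -0.80 ± 0.02. PLIN2, which coats lipid droplets, was above scrambled (71.7 ± 0.595 CPM) in both arms, at 233 ± 18.1 CPM with G9a hairpins, against 450 ± 14.6 and 314 ± 11.9 CPM (-0.69 ± 0.03), and 9 of 17 lipid efflux and droplet genes were lower and 4 higher. Among 22 integrins and adhesion genes 13 were lower and 9 higher, with the integrin ITGA6 higher (0.58 ± 0.03) and the selectin ligand SELPLG lower (-0.67 ± 0.05). Of 16 small RNA and RNA decay genes 9 were higher and 3 lower, and XPO5, the exporter of microRNA precursors, differed by 0.52 ± 0.03. Noncoding RNAs named LINC were lower in 58 of 142 and higher in 17 (median -0.15). In all 4 pairings 26 were lower, a share near the 16.9% of all genes, and 8 higher. The median was -0.26 and -0.27 in the pairings with SUV39H1 hairpin 2, and -0.08 and -0.10 in those with hairpin 4. Among the lower ones LINC00263 averaged 2.12 ± 0.293 CPM with G9a hairpins, against 4.93 ± 0.192 and 5.49 ± 0.351 CPM (-1.30 ± 0.07). TERT, the telomerase subunit, named after its values were seen, was higher (1.44 ± 0.09), at 2.87 ± 0.451 CPM with G9a hairpins, against 0.539 ± 0.0843 and 2.01 ± 0.147 CPM, and below scrambled (5.37 ± 0.314 CPM) in both arms.

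Chromatin genes in the lists beyond the targets differed by less than 2-fold, zinc finger genes apart. The list of 15 H3K9 methyltransferases and partners includes the targets EHMT2 and SUV39H1, whose directions the hairpins set, and EHMT1, described above. With these counted, 9 were higher and 4 lower (median 0.10), where 32.9% and 32.6% of all genes were. No direction of other methyltransferases is read from these counts. Among the higher ones were UHRF1, which links H3K9 methylation to DNA methylation (0.63 ± 0.03), and the corepressor TRIM28 (0.54 ± 0.05). SETDB1, another H3K9 methyltransferase, differed by 0.08 ± 0.03. Among 11 demethylases (median -0.08, and 0.03 for G9a hairpin 3 against SUV39H1 hairpin 2) JMJD1C was lower (-0.77 ± 0.04), PHF2 was lower (-0.22 ± 0.03) and KDM1A was higher (0.24 ± 0.02). Of 13 HP1 and HUSH silencing genes 9 were higher and 4 lower. Only 2 of the 13 were higher in all 4 pairings, a share below the 17.3% of all genes, so the list did not stand out there. These were the remodeller CHD4 (0.44 ± 0.03) and the lamin LMNB1 (0.42 ± 0.02). The lamin B receptor LBR was lower (-0.29 ± 0.04). DNMT1, the maintenance DNA methyltransferase, was higher (0.57 ± 0.04) and DNMT3B, which sets new methylation, lower (-0.80 ± 0.03), in a list of 24 polycomb and DNA methylation genes with 6 higher and 11 lower. MTF2, an accessory subunit of the polycomb complex PRC2, was lower (-0.64 ± 0.04). Zinc finger genes named ZNF were higher in 165 of 369 and lower in 89, with a median of 0.09. The median was 0.18 and 0.15 in the pairings with SUV39H1 hairpin 2, but 0.03 and 0.002 in those with hairpin 4. In all 4 pairings 56 were higher and 42 lower, shares below the 17.3% and 16.9% of all genes. At least 2-fold, 2 were higher and 3 lower, and the values ran from -3.23 to 1.08. ZNF93, which in human cells represses LINE-1 elements, averaged 36.8 ± 1.84 CPM with G9a hairpins, against 17.6 ± 1.09 and 23.7 ± 0.975 CPM with SUV39H1 hairpins 2 and 4 (0.85 ± 0.04).

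Reads on repeats made up a smaller share in G9a libraries. They held 6.45, 6.93 and 7.14 repeat reads per 100 gene reads (lowest, median, highest of 6), against 7.22, 7.69 and 7.84 in SUV39H1 libraries, and the groups did not overlap. The difference of the means was -0.72 (6.87 ± 0.241 against 7.59 ± 0.253, SD, n = 6 each; exact two-sided permutation test, p = 0.00216, the smallest that 6 against 6 allows). That test takes the libraries of a hairpin as separate units. With the hairpin as unit the exact permutation p was 0.333, the smallest possible. Each pairing of hairpins (3 against 3, smallest possible exact p = 0.1) pointed the same way, at -0.44 and -0.61 against SUV39H1 hairpin 2 and at -0.83 and -1.0 against hairpin 4. Both arms were above the scrambled libraries, which held 5.63 to 5.85.

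Of 929 repeat names tested, 385 (41.4%) differed, 94 higher (10.1%) and 291 lower (31.3%) with G9a hairpins. In all 4 pairings 24 were higher (2.58%) and 95 lower (10.2%), and at least 2-fold 2 were higher (0.215%) and 6 lower (0.646%). With each hairpin as 1 unit 115 were called, 22 higher and 93 lower. All G9a libraries lay above all SUV39H1 libraries for 3.55% of repeats and below them for 15.5%. Against scrambled 72.9% of repeats were called with G9a hairpins and 82.1% with SUV39H1 hairpins. The split rests on scaling repeats by gene reads: scaled by the repeat table's own totals, 419 were called, 230 higher and 189 lower, and the median over all repeats was 0.01 in place of -0.07. With SUV39H1 hairpin 4 alone, 177 (19.1%) and 237 (25.5%) were called for G9a hairpins 2 and 3, against 34.8% and 35.2% with SUV39H1 hairpin 2. Between the G9a hairpins no repeat was called (0.00%, edgeR, with 28 at an unadjusted p under 0.05), and between the SUV39H1 hairpins 172 were (18.5%).

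By family, medians ran from -0.23 to 0.02. LTR12, the LTR of HERV9, had a median of -0.08 (1 of 8 higher, 2 lower), older LINE-1 of -0.07, young LINE-1 of -0.03 (3 of 7 lower), Alu of -0.03 and satellites of -0.21 (6 of 19 lower). The THE1, MST and MLT1 group had 33 of 77 members lower and 2 higher (median -0.09), MLT2 and ERVL 9 of 21 lower, and DNA transposons 23 of 98 lower and 12 higher. HERVE with LTR2 had a median of -0.23 (4 of 6 lower, 2 higher), HERVH with LTR7 of -0.14 (3 of 5 lower) and HERVK of -0.06 (4 of 17 lower, 3 higher). SVA (2 of 6 lower), HERVW (1 of 2 lower), MER41 (2 of 7 lower, 1 higher) and MER61 (1 of 7 lower) had medians between -0.07 and 0.02. The medians of LTR12, HERVK, HERVW, MER41, MER61, LINE-1, Alu and DNA transposons turned positive with the repeat table's own scaling. In single pairings with SUV39H1 hairpin 2 the Alu median was 0.05 and 0.02 for G9a hairpins 2 and 3, and for G9a hairpin 2 the DNA transposon median was 0.04, that of MER61 0.05 and that of SVA -0.02. No direction is read from these family medians or counts. Over all repeats 31.3% were lower and 10.1% higher.

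Single repeats had clearer differences. SST1, a satellite (CPM of repeats are scaled by gene reads), stood at 156, 165 and 172 CPM with G9a hairpins, against 59.6, 59.5 and 68.9 with SUV39H1 hairpin 2 and 103, 110 and 119 with hairpin 4 (0.98 ± 0.05, adjusted p = 8.32e-17), and G9a libraries did not differ from scrambled (0.10 ± 0.05, not called). The satellite HSAT4 went the other way: 3.99, 4.46 and 5.21 CPM with G9a hairpins, against 9.20, 8.27 and 8.92 with SUV39H1 hairpin 2 and 7.31, 8.22 and 8.41 with hairpin 4 (-0.92 ± 0.07). In both repeats all G9a libraries were on 1 side of all SUV39H1 libraries. The Alu monomer FAM averaged 153 ± 4.17 CPM with G9a hairpins, against 354 ± 10.6 and 211 ± 2.88 with SUV39H1 hairpins 2 and 4 (-0.84 ± 0.03). MamGypLTR2c, an old Gypsy-like LTR, averaged 2.07 ± 0.179 with G9a hairpins, against 5.45 ± 0.783 and 3.98 ± 0.371 (-1.17 ± 0.08).

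LTR13_ (-1.01 ± 0.07) averaged 2.35 ± 0.389 CPM with G9a hairpins, against the near-equal 4.72 ± 0.0503 and 4.73 ± 0.394 CPM with SUV39H1 hairpins 2 and 4. MER101 (-0.84 ± 0.10) and LTR54 (-0.82 ± 0.07) completed the 6 lower repeats named. On the higher side were Eulor9A (1.26 ± 0.08), LTR21A (0.88 ± 0.05), X3_LINE (0.71 ± 0.03), MamGypLTR1b (0.65 ± 0.04) and MER50-int (0.65 ± 0.03). A repeat name sums all copies, and some lie within genes that differ. Whether such copies carried these differences was not tested.

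**Figure D5:**
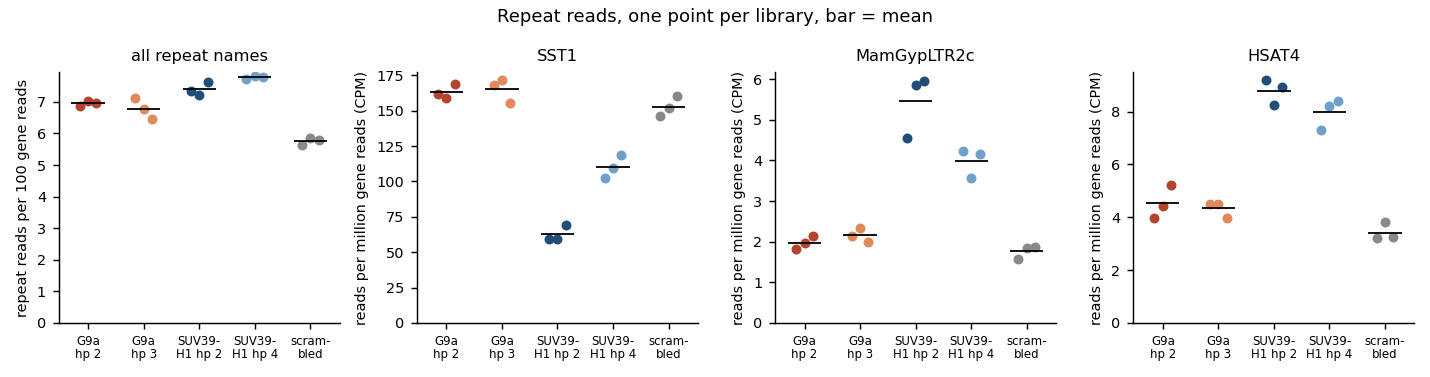
Repeat reads per 100 gene reads (left) and CPM, scaled by gene reads, of SST1, MamGypLTR2c and HSAT4, by hairpin group, on linear axes with one point per library and a bar at the mean of 3. The 6 G9a libraries lie between scrambled (5.63 to 5.85) and SUV39H1 (7.22 to 7.84) in the left panel, above the SUV39H1 libraries for SST1 and below them for MamGypLTR2c and HSAT4.

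The distance from G9a libraries was mostly larger for SUV39H1 hairpin 2 than for hairpin 4. Of the 782 genes lower at least 2-fold in the mean and in all 4 pairings (3.88%), 683 (87.3%) had the higher level with SUV39H1 hairpin 2, and their median log2 difference was -1.77 against hairpin 2 and -1.20 against hairpin 4. Of the 136 genes higher in the same sense (0.675%), 108 (79.4%) had the lower level with hairpin 2 (medians 1.52 and 1.08). Beyond a 2-fold difference between the SUV39H1 hairpins (glmTreat of edgeR, adjusted p under 0.05), 163 genes were called, and 28 of them are on the list of 75 interferon-stimulated genes. The SUV39H1 transcript itself differed by -0.18 ± 0.07 between hairpins 2 and 4, and SUV39H2 by -0.60 ± 0.07. Whether the depth of knockdown carried the difference between the hairpins was not tested.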

How the data were processed

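RNA of U937 cells was sequenced after a TruSeq RNA v2 preparation, which does not mark strand. The submitters' processing notes name STAR, featureCounts and the build hg19. Their versions, the annotation, the strand setting and the handling of multi-mapping reads are not stated there. As made by the authors, the deposited tables hold raw counts per gene name and per repeat name. The deposited Length column (another unit, bases per name) was not used in any test. 

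Genes passing edgeR's filterByExpr (minimum count 10, total 15; 20147 of 55773 names) and 929 of 992 repeats were scaled with TMM factors of the gene table. One mean per group over all 24 libraries was fitted with edgeR 4.0.16 (R 4.3.3), glmQLFit and glmQLFTest, with Benjamini-Hochberg adjustment over all features. SE is the log2 fold change divided by the root of F. It rests on the spread within the 8 groups of the series, those without a hairpin included (biological coefficient of variation 4.63%). The repeat share was tested by exact permutation. DESeq2 1.42.0 was an alternative. The fit was tested on simulated counts. Python 3.11.15, pandas 2.3.3, scipy 1.17.1 and matplotlib 3.10.9 were used for tables, permutations and plots. Depth was 31545854 to 53803704 gene counts per library, and counting intervals cover counting error only, since reads carry no molecular identifiers.

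Members and lists were chosen with earlier results of these data known. Genes were named by rule: the 4 methyltransferases, the 12 higher and 12 lower of greatest fold change among genes called in all 4 pairings, with separate libraries and a mean of at least 2 CPM, the 3 smallest p in each list, and 6 repeats in each direction with at least 1 CPM. Another 35 genes, the exceptions named in each list, overlapping genes and a few others that the text gives were chosen after their values were seen. Promoter sequences are from RefSeq (GRCh38.p14), matched by symbol, and no coordinate was converted between builds. Some genes that the rule names are not reported here.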

Additional observations from a re-analysis of the deposited data

Results flagged for a closer look

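The 2 SUV39H1 hairpins differed in their distance from the G9a libraries for 8645 genes and 172 repeats (edgeR's quasi-likelihood test of hairpin 2 minus hairpin 4, Benjamini-Hochberg adjusted p under 0.05), while the 2 G9a hairpins differed for 2 genes. Beyond a 2-fold difference, tested with glmTreat of edgeR, 163 genes were called between the SUV39H1 hairpins. The cause was not tested.

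Only genes and repeats named by rule were screened one by one, not those chosen after their values were seen. Those past the 2-fold test are given as log2 of SUV39H1 hairpin 2 minus hairpin 4. Higher with hairpin 2 were the interferon genes IFI44L (4.66), OAS2 (3.50), IFI44 (3.13), TRIM22 (1.87), IFIT5 (1.86), IFI6 (1.71) and OAS1 (1.65), and the DNA sensor AIM2 (2.28). The myeloid receptors CCR2 (2.56), CLEC7A (1.61), SIGLEC1 (1.40) and TREM1 (1.15) had the same sign, as had SLCO2B1 (2.15), SUCNR1 (1.75), SRXN1 (1.16) and the histone genes HIST2H2BE (1.63) and HIST1H2AC (1.42). Lower with hairpin 2 were MAP7D2 (-1.68), ASNS (-1.57), IL6R (-1.43), CLEC5A (-1.42) and the repeat Eulor9A (-1.65). For all of these but ASNS both SUV39H1 hairpins lay on the same side of the G9a libraries.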

How the results depend on the processing

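The count of genes called, 13197, stayed within 1.5 times under RLE scaling, no low-count filter, the 12 libraries alone, DESeq2 and each single pairing, and ranged from 12724 to 12895 without single libraries. With each hairpin as 1 unit it was 2640 (1149 higher, 1491 lower). The count of repeats, 385, ranged from 336 to 443 without single libraries, was 115 (22 higher, 93 lower) with the hairpin as unit, and was 177 and 237 for G9a hairpins 2 and 3 against SUV39H1 hairpin 4. With the repeat table's own scaling it was 419 (230 higher, 189 lower). The difference in repeat reads per 100 gene reads ranged from -0.80 to -0.64 without single libraries. It was -0.72 with the hairpin as unit (exact permutation p = 0.333, the smallest possible), and -0.44, -0.83, -0.61 and -1.0 in the 4 pairings (exact permutation p = 0.1 each, the smallest possible). These designs are too small to pass 0.05.

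The replicate numbers did not pair the libraries: the correlation of deviations was -0.09 to 0.11 for 18 pairs with the same number and -0.13 to 0.12 for 36 others. With the replicate number as a block 13434 genes and 403 repeats were called, and the repeat share had an exact permutation p of 0.00926, the smallest of 216 arrangements.

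Of the named genes and repeats, 3 values changed sign: ASNS at 0.21 (edgeR, adjusted p = 5.23e-05) and 0.026 (0.598) for G9a hairpins 2 and 3 against SUV39H1 hairpin 2, and EGR1 at 0.11 (0.349) for G9a hairpin 3 against SUV39H1 hairpin 4. A call was lost in 85 cases, 73 of them among 181 with the hairpin as unit, and MX2 lost its call without G9a hairpin 2 replicate 1 and without G9a hairpin 3 replicate 3. Of the list medians under the alternatives, 114 moved by more than the SD over the 4 pairings and 1045 did not; sign changes of medians near 0 also came from leaving out 1 library for MER61, SVA and the epithelial and fibroblast markers. The cause was not tested. Depth limits genes with few counts, such as IFI44L and IFNB1.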
